A study of Mus musculus with 12 samples.

Results

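RNA of 7 genes that make or move GABA and glutamate was followed in mouse striatal synaptosomes. They are the vesicular glutamate transporters Slc17a7, Slc17a6 and Slc17a8, the vesicular GABA transporter Slc32a1, the GABA-synthesizing enzymes Gad1 and Gad2, and the plasma membrane GABA transporter Slc6a11. The genes were chosen by name, as a functional group, and each had 1 row among the 21492 genes of the deposited table. All 7 passed the filter on low values, which kept genes with at least 3 fitted libraries at a value of 10.

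Synaptosomes are pinched-off nerve terminals, often with attached postsynaptic membrane, and polysomes are transcripts loaded with several ribosomes. The study compared synaptosomal input RNA and synaptosomal polysome RNA. The striatum was taken at postnatal day 70 from male mice of the C57BL/6J strain, which were wild type (WT) or Shank3 TG (TG), and carried no other allele or treatment that the labels name. The 4 groups, WT input, TG input, WT polysome and TG polysome, had 3 libraries each, numbered 1 to 3. The sources used here do not name the promoter of the transgene, the number of lines or any pooling of animals.

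Glutamate is loaded into synaptic vesicles by the 3 SLC17A transporters VGLUT1 (Slc17a7), VGLUT2 (Slc17a6) and VGLUT3 (Slc17a8). Cortical neurons use mainly VGLUT1, thalamic neurons mainly VGLUT2, and striatal cholinergic interneurons carry VGLUT3, so that the striatum receives the first pair through axons whose cell bodies lie elsewhere. GABA is made from glutamate by GAD67 (Gad1) and GAD65 (Gad2), loaded by VGAT (Slc32a1) and cleared in part by GAT3 (Slc6a11), which is known from astrocytes. Medium spiny neurons, the main neurons of the striatum, release GABA.

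The genes lie on 4 chromosomes of GRCm38. Gad1 (ENSMUSG00000070880, chr2:70553072-70602014), Gad2 (ENSMUSG00000026787, chr2:22622205-22693874) and Slc32a1 (ENSMUSG00000037771, chr2:158610767-158615748) are on chromosome 2, each on the plus strand. Slc17a7 (ENSMUSG00000070570, chr7:45163949-45176142) and Slc17a6 (ENSMUSG00000030500, chr7:51622006-51671119) are on the plus strand of chromosome 7. Slc17a8 (ENSMUSG00000019935, chr10:89574020-89621253) is on the minus strand of chromosome 10, and Slc6a11 (ENSMUSG00000030307, chr6:114131241-114249952) on the plus strand of chromosome 6. All are protein-coding in GENCODE M21. The principal transcript of Slc32a1 has 2 exons, and those of the others have 12 to 17. Their coding parts are alike in size, from 1578 bases in Slc32a1 to 1884 in Slc6a11, while the 3′ UTR runs from 744 bases in Slc32a1 to 3528 in Gad2. Between 0.0% and 3.97% of a gene's 31-base sequences occur in another gene, the highest share being that of Gad1. Genes on the opposite strand overlap Gad1 (Gad1os), Slc32a1 (Gm14205) and Slc6a11 (Gm8132, a processed pseudogene). The highest values of Gad1os and Gm14205 in any library were 3.37 and 5.78 normalized counts, and Gm8132 had no row in the deposited table.

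The promoter sequences of 4 genes are printed because these carry the patterns below: the libraries numbered 2 were lowest in Slc17a7 and highest in Slc17a8, and Gad1 and Gad2 were both lower in polysome than in input RNA. They are the bases before the RefSeq start site on GRCm38.p6, shortened where an annotated exon begins. The intervals are chr7:45163671-45163920 on the plus strand for Slc17a7, chr10:89621254-89621499 on the minus strand for Slc17a8, chr2:70561879-70562041 on the plus strand for Gad1 and chr2:22622077-22622204 on the plus strand for Gad2. The Gad1 interval lies inside the annotated gene. Capitals mark the letters GGGCGG (known as the GC box) or TATAAA (known as the TATA box), each searched on both strands.
Slc17a7: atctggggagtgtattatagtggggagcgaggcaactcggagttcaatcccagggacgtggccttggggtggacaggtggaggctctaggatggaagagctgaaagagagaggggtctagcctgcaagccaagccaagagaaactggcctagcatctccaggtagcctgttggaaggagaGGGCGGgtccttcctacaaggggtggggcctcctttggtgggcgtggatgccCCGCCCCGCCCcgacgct
Slc17a8: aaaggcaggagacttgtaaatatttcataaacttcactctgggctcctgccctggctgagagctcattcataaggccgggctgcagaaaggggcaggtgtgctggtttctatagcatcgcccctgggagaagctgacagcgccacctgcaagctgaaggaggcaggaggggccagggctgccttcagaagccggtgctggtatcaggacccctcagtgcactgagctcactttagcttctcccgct
Gad1: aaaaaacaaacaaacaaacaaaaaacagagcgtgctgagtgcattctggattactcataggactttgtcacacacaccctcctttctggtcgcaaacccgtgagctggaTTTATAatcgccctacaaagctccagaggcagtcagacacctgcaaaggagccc
Gad2: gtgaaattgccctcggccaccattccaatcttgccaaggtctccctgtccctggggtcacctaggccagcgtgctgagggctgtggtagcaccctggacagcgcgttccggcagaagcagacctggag

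In the full windows of 250 bases, Slc17a7 held 3 GC box matches, of which the last pair share 1 base, and no TATA box match. Gad1 held 1 of each, its GC box match lying in the exonic part that is not printed. Slc17a8 and Gad2 held neither. Across 32851 RefSeq promoter windows of that length, 32.7% held a GC box match and 12.4% a TATA box match, so neither is rare. A match here describes letters and not a bound site.

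The values are the authors' normalized counts, and 1 read was worth an estimated 1.80 at most in an input library and 0.839 at most in a polysome library. Estimated depth per library was 62.4 to 85.9 M reads for input and at most 102.4 M reads for polysome RNA. The lowest member value in any library, that of Slc17a6, corresponds to about 251 reads, so counting error was small beside the spread between libraries. Shank3, the gene of the transgene, ranged from 2121 to 5858 in WT input and from 5456 to 17500.5 in TG input. In polysome RNA it ranged from 1501 to 5848 in WT and from 5012 to 12626 in TG. Its mean was 4047 in WT input and 12355 in TG input, and 3684 in WT polysome and 9964 in TG polysome. The ranges of the genotype groups overlapped in both fractions. Mitochondrially encoded genes took 43.1% to 49.9% of an input library's signal and 24.6% to 36.5% of a polysome library's. All 16 medium spiny neuron markers, all 14 cortical excitatory neuron markers and all 12 astrocyte markers passed the filter, and none was at 0 in any library. In such mixed tissue fewer terminals or cells of a type and less RNA in each cannot be told apart.

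The libraries numbered 2 stood apart in several members. Slc17a7 and Slc17a6 were lowest in the library numbered 2 in 4 of 4 groups, and Slc17a8 and Gad2 were highest there in 4 of 4. The mean log2 level of the cortical excitatory neuron markers was lower in number 2 than in the other libraries of its group, by a log2 difference of -0.83 to -0.68. That of the medium spiny neuron markers was higher by 0.87 to 1.05, and that of the oligodendrocyte markers by 0.48 to 0.57. What a number stands for is not given in the labels, and the part of these lists in the members' differences was not tested.

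Slc17a7 had the highest mean of the 7 genes in each group, though Gad1 exceeded it in TG input 2. Its normalized counts in libraries 1, 2 and 3 were 67947, 26823 and 56100.3 in WT input and 50533, 22905 and 67587 in TG input. They were 84956, 44807 and 99249 in WT polysome and 70483, 35895 and 122010.4 in TG polysome. Number 2 was lowest in each group, at 0.373 to 0.487 times the mean of the other libraries, and the 4 groups overlapped. Averaged over groups, number 2 lay below the others by a log2 difference of -1.24.

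Slc17a6, which loads glutamate in thalamic and other subcortical neurons, had a wider spread at a far lower level. Libraries 1, 2 and 3 held 1661, 795 and 2425 normalized counts in WT input and 1289, 344 and 2297 in TG input. Polysome libraries held 1703, 615 and 1778 in WT and 1181, 402 and 1864 in TG. Number 3 was highest and number 2 lowest in each group, and number 2 lay below the others by a mean log2 difference of -1.76. The thalamic excitatory neuron markers, 8 genes, differed less between numbers, by -0.20 for number 2 and 0.45 for number 3 against the others.

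Slc17a8 ran the other way. It had 734, 1315 and 773 normalized counts in WT input and 934, 1393 and 773 in TG input. In polysome RNA it held 986, 1600.1 and 799 in WT and 1066, 1967 and 906 in TG. Number 2 was highest in every group, at 1.63 to 2.00 times the mean of the other libraries. Slc18a3, the vesicular acetylcholine transporter of the cholinergic interneurons known to carry VGLUT3, was likewise higher in number 2, by a mean log2 difference of 0.70 beside 0.84 for Slc17a8. The whole list of 12 striatal interneuron markers, to which Slc18a3 belongs, showed no such difference (-0.02, range -0.11 to 0.13). The medium spiny neuron markers were higher in number 2 by a mean of 0.95. A link of Slc17a8 to a cell type was not tested.

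Gad1 and Gad2 moved together between libraries, and differed more by number in polysome RNA than in input. Number 2 of Gad1 was at 1.03 (WT) and 1.15 (TG) times the mean of the other input libraries. In polysome RNA it was at 1.60 (WT) and 1.66 (TG) times. For Gad1, libraries 1, 2 and 3 held 20959, 23902 and 25676 normalized counts in WT input and 21940.0, 27098 and 25161 in TG input. Polysome libraries held 12692, 15950.4 and 7284 in WT and 12361, 16627 and 7668 in TG. Every polysome value of Gad1 was below every input value, and within the polysome groups number 3 was the lowest and number 2 the highest.

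Gad2 had input values of 12618, 15430 and 15279 in WT and 14240.0, 16378 and 15793 in TG. In polysome RNA it had 10977, 13481 and 7425 in WT and 11669.8, 14163 and 7783 in TG. Number 2 was the highest in each group, and its WT polysome library overlapped the WT input range. Averaged over groups, number 2 lay above the others by 0.44 on the log2 scale for Gad1 and 0.36 for Gad2.

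Slc32a1 and Slc6a11 were the steadiest members. Slc32a1 ranged from 4328 to 4983 in WT input, 4293 to 5536 in TG input, 3342 to 5805 in WT polysome and 4120.3 to 5632 in TG polysome. Slc6a11 ranged from 5429 to 8829 in WT input and 5063 to 9096 in TG input, where number 3 was highest. Its polysome values were tighter, at 5941, 5972 and 6131 in WT and 5566, 5000.4 and 5557 in TG.

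**Figure D1:**
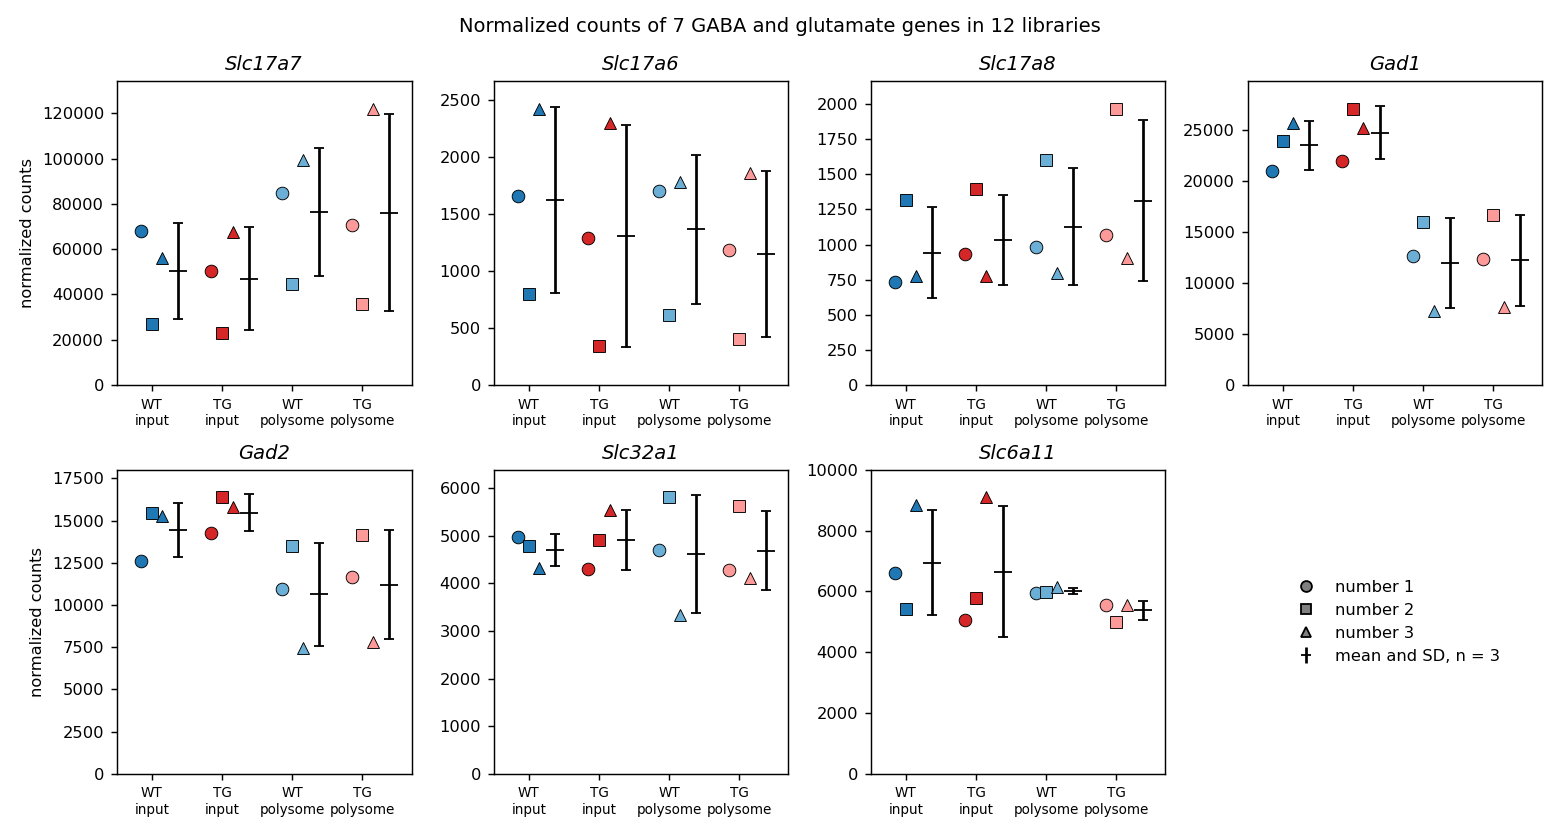
Normalized counts (y axis, from 0, own scale per gene) of the 7 genes in each library, by group (x axis), with the mean and SD of 3 libraries as a black bar. Gad1 is lower in all 6 polysome libraries than in any input library, and squares (number 2) are lowest for Slc17a7 and Slc17a6 and highest for Slc17a8.

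The spread within groups, measured as a pooled SD of log2 levels, set the members apart from one another. It was 1.08 for Slc17a6, 0.76 for Slc17a7 and 0.50 for Slc17a8, against a median of 0.26 over the 10977 genes whose log2 level averaged 8 or more. These SDs lay at percentiles 99.6, 98.7 and 93.2 of those genes. Gad1 (0.42) and Gad2 (0.33) lay at 87.1 and 71.6. Slc6a11 (0.29) was near the middle, at 60.4, and Slc32a1 (0.26) at the median. Within groups, the 3 vesicular glutamate transporters thus spread more than the GABA genes.

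**Figure D2:**
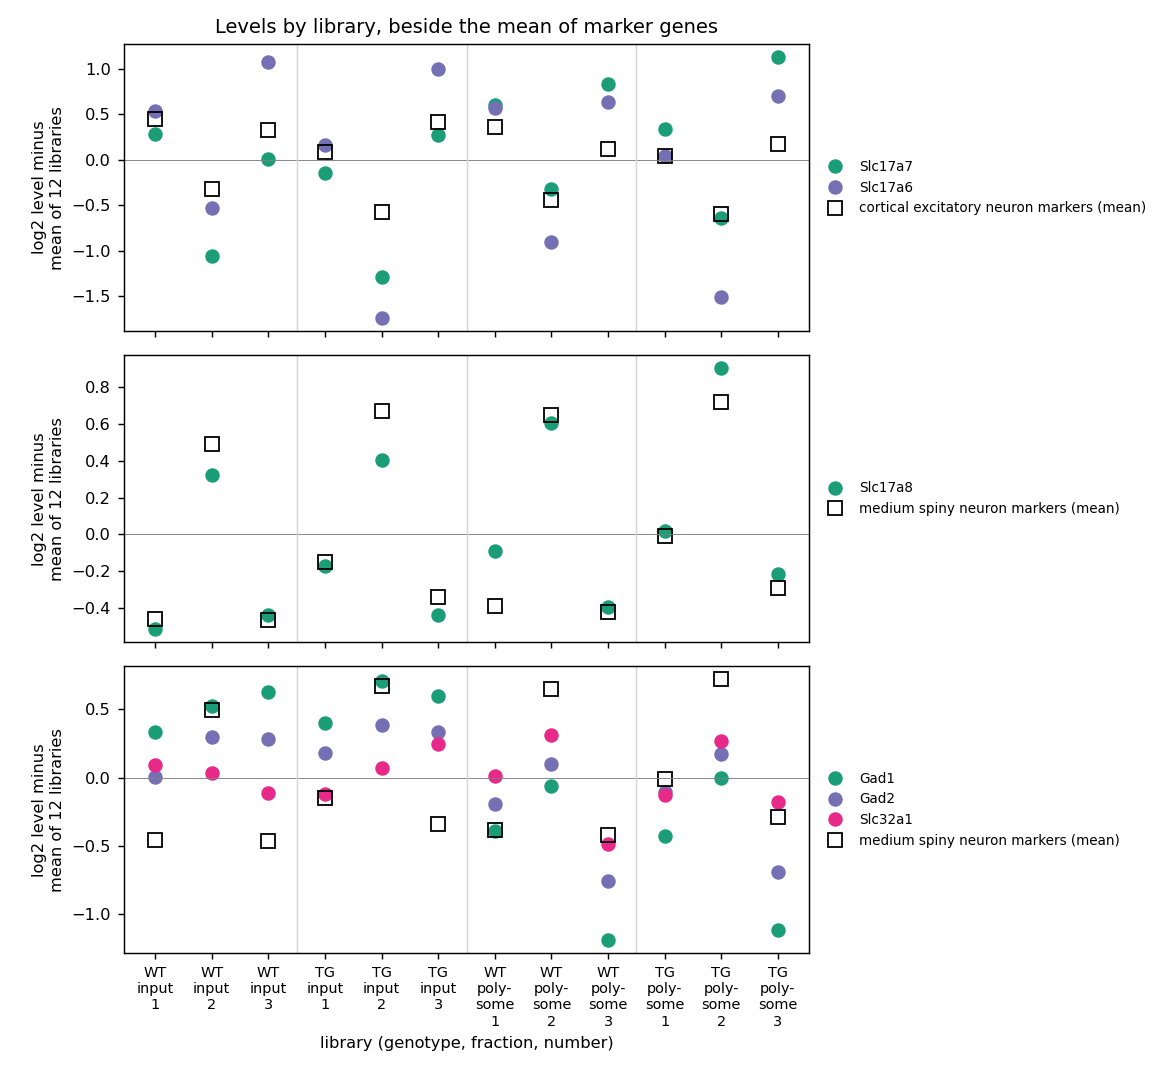
Log2 level of members minus their mean over 12 libraries (y axis) by library (x axis: genotype, fraction, number), with the mean of cortical excitatory or medium spiny neuron markers as open squares. In each group, the library numbered 2 is lowest for Slc17a7, Slc17a6 and the cortical markers and highest for Slc17a8 and the medium spiny neuron markers.

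Levels were compared between genes as normalized counts per kilobase of exonic length. In input the mean levels per kilobase were 9022 ± 3643 for Slc17a7, 3158 ± 305 for Gad1, 2545 ± 229 for Gad2, 1718 ± 165 for Slc32a1, 1346 ± 347 for Slc6a11, 272 ± 153 for Slc17a6 and 209 ± 62.2 for Slc17a8 (SD, n = 6). The ranges of neighbours in that order overlapped for Gad1 and Gad2, Slc32a1 and Slc6a11, and Slc17a6 and Slc17a8. In polysome RNA, Slc17a7 was at 14138 ± 6066 per kilobase and Gad2, Slc32a1 and Gad1 followed at 1858 ± 480, 1662 ± 336 and 1584 ± 519 (SD, n = 6). Those 3 genes overlapped, and Slc6a11 at 1128 ± 81.4 overlapped Gad1. Slc17a8 (259 ± 97.4) and Slc17a6 (233 ± 117) came last and overlapped each other.

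The length that is used changes this order, mainly for Gad1, whose exonic length of 7639 bases exceeds the 3355 bases of its principal transcript. With the principal transcript, Gad1 stood at 7190.1 per kilobase in input and 3606 in polysome RNA, second in both, and Slc17a7 at 16689 and 26152, with input ranges that then overlapped. The last pair also changed places in polysome RNA, with Slc17a6 at 304 and Slc17a8 at 274 per principal kilobase. By its mean, Slc17a7 was first in both fractions with either length. Among the 3 vesicular glutamate transporters per kilobase, Slc17a7 took 92.1% to 97.7% in each library, Slc17a6 took 1.04% to 4.08% and Slc17a8 took 0.829% to 6.41%. By exonic length the VGLUT3 gene exceeded the VGLUT2 gene in the libraries numbered 2, and also in TG polysome 1 (1.67% against 1.62%).

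The comparison of polysome with input asked which synaptosomal transcripts are more or less abundant in the ribosome-loaded RNA. The sources used here do not say whether the authors scaled both fractions together. Normalized counts summed to 95.5 to 112.6 M per input library and 62.2 to 74.3 M per polysome library, so each difference is relative to that scaling. Gad1 fell in both genotypes, by about 1 log2 unit. With limma's moderated test its log2 difference was -1.04 ± 0.30 (SE) in WT (adjusted p = 0.0369) and -1.08 ± 0.30 in TG (adjusted p = 0.0271), or 2.06-fold and 2.12-fold lower on the log2(value + 1) scale. It was 1 of 7 members called in each genotype, beside 14.0% of all 16962 tested genes in WT and 18.1% in TG. No member was called higher, beside 5.36% and 8.19% of all genes. Gad1's polysome and input libraries did not overlap in either genotype, as was so for 18.5% and 18.0% of all genes in that direction. No member had its 3 polysome libraries above its 3 input libraries in either genotype, while 17.7% and 17.6% of all genes did.

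All 6 pairs of same-numbered libraries had less Gad1 in polysome RNA. In WT the log2 differences of numbers 1, 2 and 3 were -0.72, -0.58 and -1.82, and in TG they were -0.83, -0.70 and -1.71. Number 3 had the largest drop in both genotypes. With a replicate block, a term for the library number that sets each polysome library against its own input, the adjusted p was 0.0168 in WT and 0.0121 in TG. Without number 2 the blocked value was -1.27 in both genotypes (adjusted p = 0.0653 and 0.0508), and without number 3 it was -0.65 and -0.77 (adjusted p = 0.00505 and 0.00254). Over all fits that left out a number, blocked and unblocked, the call of Gad1 was lost in 4 in each genotype. In the unblocked fit the call in WT was lost without any one of WT input 1, 2 and 3 and WT polysome 1 and 3, and that in TG without TG input 2 or 3 or TG polysome 1 or 3. The smallest values were -0.72 without WT polysome 3 and -0.78 without TG polysome 3 (adjusted p = 0.137 and 0.111).

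Gad2 was also lower in polysome RNA in 6 of 6 pairs, but did not pass the test. Its log2 difference was -0.48 ± 0.24 (SE, adjusted p = 0.206 by limma) in WT and -0.51 ± 0.24 (adjusted p = 0.169) in TG. The pairwise values ran from -1.04 to -0.19, again with number 3 the largest in both genotypes. In TG its polysome libraries all lay below its input libraries.

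The ratio of Gad1 to Gad2 within a library does not depend on the scaling of libraries. It was 1.66, 1.55 and 1.68 in WT input and 1.54, 1.65 and 1.59 in TG input. In polysome RNA it was 1.16, 1.18 and 0.981 in WT and 1.06, 1.17 and 0.985 in TG. The fractions did not overlap, with means of 1.61 ± 0.06 and 1.09 ± 0.09 (SD, n = 6), and the genotypes did. The ratio of Gad1 to Slc32a1 likewise lay at 4.21 to 5.93 in input and 1.86 to 2.95 in polysome RNA. These ratios were chosen after the values were seen and are given without a test.

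Slc32a1, the third gene of the GABA terminal, showed little difference between fractions: -0.06 ± 0.20 (SE) in WT and -0.08 ± 0.20 in TG. The 95% intervals ran from -0.50 to 0.38 and from -0.52 to 0.37. The medium spiny neuron markers were on average 0.09 higher in polysome RNA in WT and 0.08 in TG, and the striatal interneuron markers 0.02 higher in both.

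Slc17a7 was higher in polysome RNA in 6 of 6 pairs, by 1.25 to 1.81 times. The mean log2 difference was 0.63 ± 0.51 (SE) in WT and 0.66 ± 0.51 in TG, and did not pass the unblocked test (adjusted p = 0.446 and 0.403 by limma). With the replicate block the SE was 0.14 and Slc17a7 rose in both genotypes (adjusted p = 0.0135 and 0.00908), beside 29.8% and 33.2% of all genes called in that fit, 13.9% and 16.7% as higher. Without number 2 the blocked values were 0.57 and 0.67 and did not pass (adjusted p = 0.128 and 0.0800), and without number 1 or number 3 they passed. The cortical excitatory neuron markers differed in the other direction between fractions, by -0.14 in WT and -0.10 in TG.

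Slc17a8 was higher in polysome RNA in 6 of 6 pairs as well, by 1.03 to 1.41 times. Its mean difference of 0.25 ± 0.35 in WT and 0.31 ± 0.35 in TG passed neither the unblocked nor the blocked limma test (blocked adjusted p = 0.175 and 0.102). Slc17a6 differed by -0.26 ± 0.71 and -0.07 ± 0.71, with 4 of 6 pairs lower. Slc6a11 differed by -0.18 ± 0.22 and -0.26 ± 0.22, with 4 of 6 pairs lower, and the astrocyte markers by -0.12 and -0.10. For Slc17a8 in TG the blocked 95% interval, 0.0102 to 0.601, excluded 0 before adjustment over all genes (unadjusted p = 0.0439 by limma). The blocked intervals of Slc17a8 in WT and of Slc17a6 and Slc6a11 in both genotypes included 0.

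**Figure D3:**
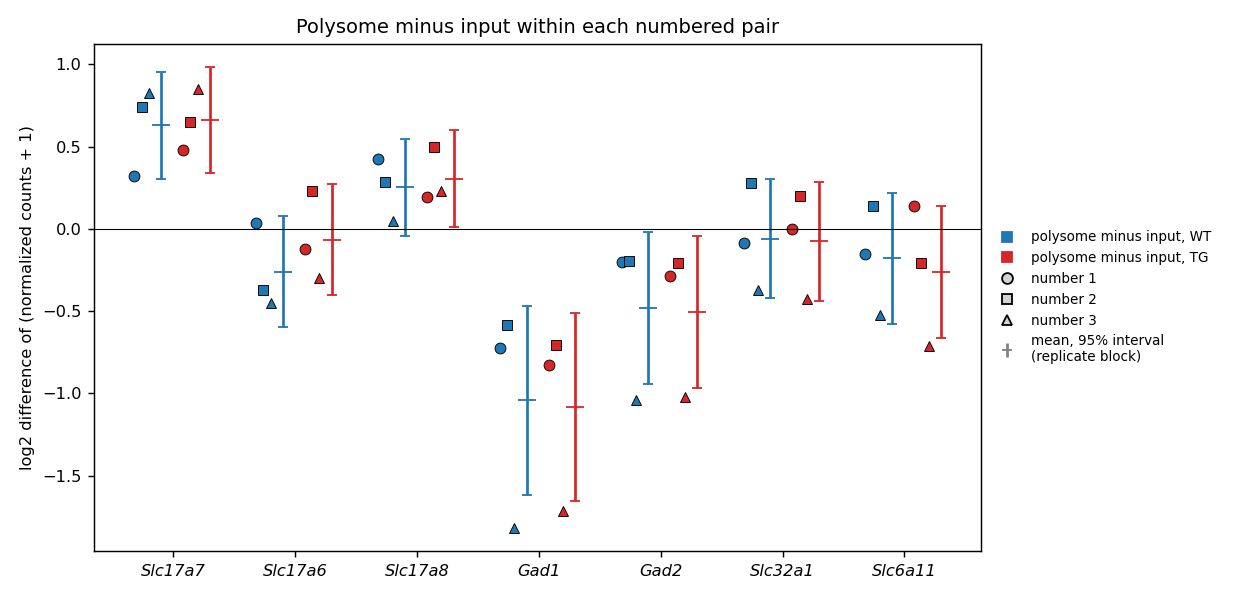
Log2 difference of polysome minus input (y axis) for the 7 genes in each same-numbered pair, in WT and TG, with the mean and 95% interval of the blocked fit as bars. All 6 pairs are below 0 for Gad1 and Gad2 and above 0 for Slc17a7 and Slc17a8, while Slc17a6, Slc32a1 and Slc6a11 have pairs on both sides.

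Scaling bears on these differences. With TMM scaling, which kept all genes, the median of all genes was 0.045 in WT and 0.048 in TG, beside 0.03 on the deposited scale. When mitochondrially encoded genes were removed and the libraries rescaled to equal sums, it moved to 0.30 in WT and to 0.32 in TG. This changed the scaling rule as well as the genes kept, since the deposited sums differed between fractions. On that scale Gad1 was at -0.76 and -0.79 and no longer passed (limma adjusted p = 0.0623 and 0.0508), and the signs of Slc17a6, Slc32a1 and Slc6a11 reversed. Calls in WT then split into 3113 higher and 793 lower, against 910 and 1457 on the deposited scale, and in TG into 3682 and 832 against 1389 and 1673. Measured from the median of all genes, Gad1 was at -1.07 in WT and -1.11 in TG on both scales, and Slc17a7 at 0.60 and 0.63.

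Other genes of GABA and glutamate handling were read in the same fit from a list of 26. None rose and 6 fell in WT, and none rose and 7 fell in TG, with median log2 differences of -0.28 and -0.36 beside 0.03 for all genes in both. By direction, 8.59% of all genes in WT and 9.86% in TG were called lower. The enzymes had the most calls, 3 of 8 in WT and 4 of 8 in TG. Got2, the mitochondrial aspartate aminotransferase, fell by 1.27 ± 0.30 on the log2 scale in WT and by 1.24 ± 0.30 in TG (limma adjusted p = 0.0190 and 0.0167). It ranged from 9397 to 12186 normalized counts in input and from 2799 to 6311 in polysome RNA, with no overlap.

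The enzymes that break GABA down were among the fallen genes. Abat, GABA transaminase, changed by -0.95 ± 0.27 in WT and -0.98 ± 0.27 in TG, and Aldh5a1, succinate semialdehyde dehydrogenase, by -0.69 ± 0.19 and -0.73 ± 0.19 (limma adjusted p = 0.0379, 0.0281, 0.0311 and 0.0207). Glul, glutamine synthetase, changed by -0.62 ± 0.19 in WT, short of the threshold (adjusted p = 0.0507), and by -0.64 ± 0.19 in TG (adjusted p = 0.0375). Hspa8, the Hsc70 chaperone, fell by 1.20 ± 0.30 in WT and by 1.15 ± 0.30 in TG (adjusted p = 0.0236 and 0.0229).

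Of the 4 plasma membrane glutamate transporters, Slc1a3 and Slc1a1 fell. Slc1a3, the astrocyte transporter GLAST, changed by -1.08 ± 0.20 in WT and -1.09 ± 0.20 in TG (limma adjusted p = 0.00738 and 0.00588). Slc1a1, the neuronal transporter EAAC1, changed by -0.69 ± 0.19 and -0.62 ± 0.19 (adjusted p = 0.0325 and 0.0416). Slc1a2, the main astrocyte transporter GLT-1, was at -0.32 and -0.36 and Slc1a6 at 0.14 and 0.27, without passing. None of the 3 other plasma membrane GABA transporters, 4 glutamine transporters and 4 mitochondrial glutamate carriers passed in the unblocked fit. With the block 1 of the 26 rose in each genotype, the mitochondrial glutamate carrier Slc25a18 (0.45 ± 0.12 in WT and 0.65 ± 0.12 in TG), and 9 fell in WT and 8 in TG. In that fit 13.9% and 16.7% of all genes were called higher and 15.9% and 16.6% lower. Slc25a18 did not pass the blocked test in WT without number 1 or 2, nor in TG without number 2.

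Most calls of these related genes were lost when some 1 library was left out. Leaving out input 2, input 3 or polysome 3 of the same genotype ended each unblocked call of Got2, Abat, Aldh5a1, Hspa8 and Slc1a1, and that of Glul in TG. Got2 was then at its smallest without polysome 3, at -0.90 in WT and -0.92 in TG (limma adjusted p = 0.0672 and 0.0699). The call of Slc1a1 was also lost without input 1 in both genotypes, polysome 2 in WT and polysome 1 in TG. Those of Abat and Aldh5a1 in both genotypes and of Hspa8 and Glul in TG were also lost without polysome 1. Over these fits the highest adjusted p of a lost call was 0.146, for Glul in TG. Slc1a3 passed in 6 of 6 such fits in each genotype. Without all libraries of number 1 or of number 2, none of the 7 genes passed the unblocked test. With mitochondrial rescaling the calls of Abat, Aldh5a1 and Slc1a1 in both genotypes and of Glul in TG were lost.

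**Figure D4:**
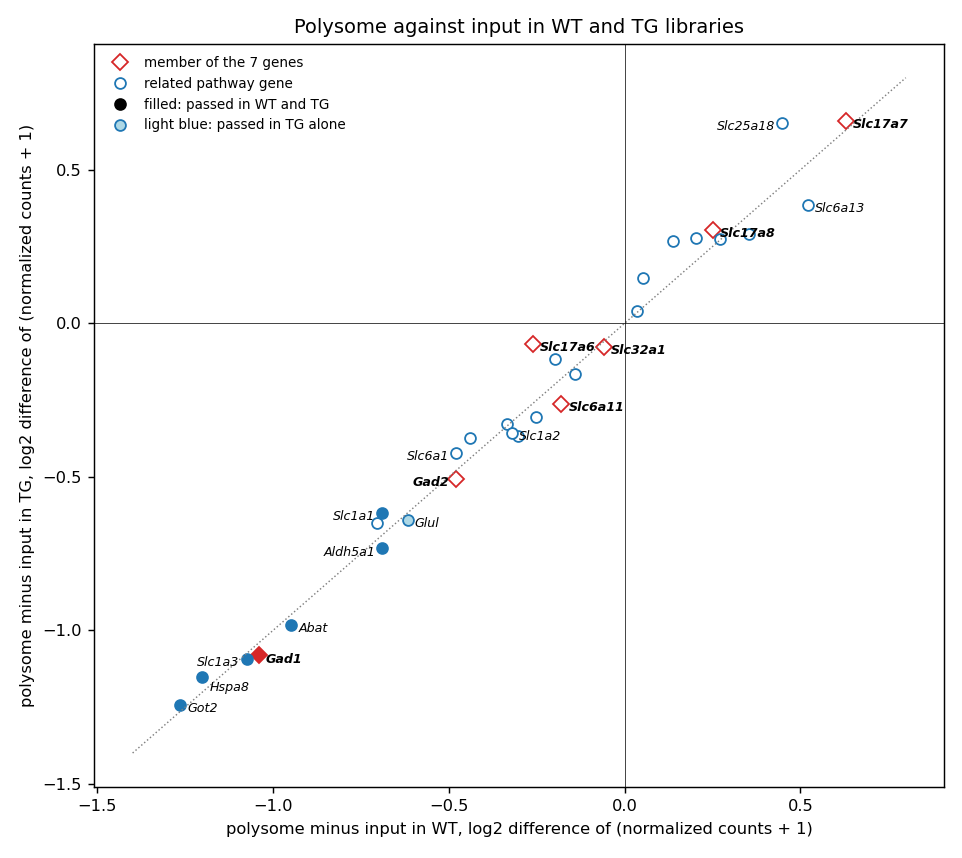
Log2 difference of polysome minus input in WT (x axis) and TG (y axis) for the 7 genes (diamonds) and 24 of the 26 related genes (circles). The low genes Slc6a12 and Slc38a5 are left out, and filled symbols passed the unblocked test in both genotypes. Gad1 lies beside Slc1a3, Hspa8 and Got2 at the low end and Slc17a7 at the high end.

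Genotype was compared within each fraction to ask which transcripts differ with the Shank3 transgene. No member passed in input or in polysome RNA, beside 0.0% of 16341 and 16312 tested genes by limma. Shank3 itself, whose mean was higher in TG in both fractions, was thus not called in these fits either. At an unadjusted p under 0.05, 80 genes in input and 53 in polysome RNA differed, none of them a member. With the block no gene passed in input and 1 gene, 0.00613%, in polysome RNA, which was not a member. Same-numbered pairs are counted below within each fraction. Both fractions of a number were taken to share their sample, so the pairs of input and polysome RNA are not independent.

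Slc17a6 had the largest genotype difference of the members. It was lower in TG in 3 of 3 same-numbered pairs in input and in 2 of 3 in polysome RNA. The log2 differences were -0.37, -1.21 and -0.08 in input and -0.53, -0.61 and 0.07 in polysome RNA. The mean was -0.55 ± 0.68 (SE) in input and -0.36 ± 0.59 in polysome RNA by the unblocked limma fit, with adjusted p-values near 1. With the block the 95% intervals were -0.996 to -0.106 and -0.68 to -0.03, at unadjusted p = 0.0209 and 0.0344, and the adjusted p was 0.9998 and 0.9996. The library numbered 2 had the largest difference in each fraction. Without number 2 the values were -0.22 in input and -0.23 in polysome RNA.

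Slc17a7 and Slc17a8 had no genotype difference beyond their replicate error. Slc17a7 was lower in TG in 2 of 3 pairs in each fraction, and higher in both pairs of number 3. Its mean difference was -0.13 ± 0.46 in input and -0.10 ± 0.47 in polysome RNA. With the block its 95% intervals were -0.45 to 0.19 and -0.47 to 0.28. Slc17a8 was higher in TG in 2 of 3 pairs in input and in 3 of 3 in polysome RNA, by 0.14 ± 0.29 and 0.20 ± 0.34. The cortical excitatory neuron markers were lower in TG, by -0.18 in input and -0.14 in polysome RNA, and the medium spiny neuron markers higher, by 0.20 and 0.19. Their part in these values was not tested.

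Among the GABA genes, Gad2 was higher in TG in 3 of 3 pairs in input and in 3 of 3 in polysome RNA, by 1.03 to 1.13 times. Its mean difference was 0.10 ± 0.15 in input and 0.08 ± 0.29 in polysome RNA, and with the block the intervals were -0.11 to 0.31 and -0.17 to 0.32. Gad1 differed by 0.07 ± 0.16 and 0.03 ± 0.36, with 2 of 3 pairs higher in each fraction. Slc32a1 differed by 0.06 ± 0.15 and 0.04 ± 0.23, with 2 of 3 pairs higher in input and 1 of 3 in polysome RNA. For Gad1 the blocked intervals were -0.15 to 0.30 and -0.21 to 0.28.

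Slc6a11 was the one member whose genotype groups did not overlap, in polysome RNA alone, where the highest TG value, 5566, lay below the lowest WT value, 5941. This held in that direction for 0.999% of all genes, and in the other for 1.37%. In input no member's genotype groups were apart, beside 1.23% of all genes with TG higher and 1.39% with TG lower. The log2 difference was -0.16 ± 0.14 (limma adjusted p = 0.9999), with a 95% interval of -0.49 to 0.16. In input it was -0.08 ± 0.26, with 1 of 3 pairs lower, and the astrocyte markers differed by 0.01 in input and 0.03 in polysome RNA.

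**Figure D5:**
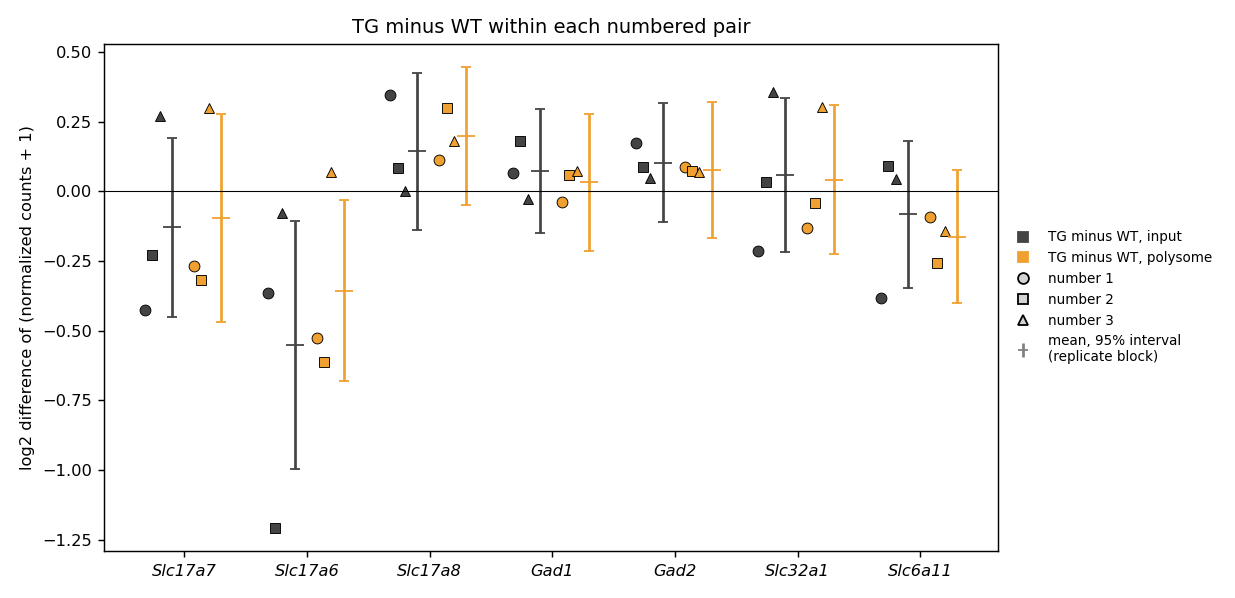
Log2 difference of TG minus WT (y axis) for the 7 genes in each same-numbered pair, in input and polysome RNA, with the mean and 95% interval of the fit with a replicate block. Intervals exclude 0 for Slc17a6 alone, before adjustment over all genes, and its library pair numbered 2 in input is the lowest point at -1.21.

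Whether the genotype difference itself differed between input and polysome RNA was tested as an interaction in the fit of all 12 libraries. No member passed, beside 0.0% of 16962 genes by limma, and 94 genes had an unadjusted p under 0.05. The estimates were -0.04 ± 0.42 (SE) for Gad1, -0.03 ± 0.34 for Gad2, -0.02 ± 0.29 for Slc32a1, -0.08 ± 0.31 for Slc6a11, 0.03 ± 0.72 for Slc17a7, 0.05 ± 0.49 for Slc17a8 and 0.19 ± 1.01 for Slc17a6. For Gad1 the 95% interval of this difference was -0.95 to 0.87. Of the related genes, none of 26 tested passed for genotype in input or for the interaction, and none of 25 in polysome RNA. Those with the smallest p were Slc6a12 in input (1.64 ± 1.11) and for the interaction (-2.01 ± 1.42), at 0 to 30.2 normalized counts, and Slc6a13 in polysome RNA (-0.48 ± 0.25).

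For each member, the 3 genes with the most similar profile over the 12 libraries were taken from 13289 genes by Pearson's r of log2 levels, which is a description. The libraries share their scaling and their numbers. Slc17a7 ran closest to Hs3st2 (0.997), a heparan sulfate sulfotransferase, Mfsd4a (0.993) and Stmn2 (0.989). Slc17a6 ran closest to Kcnj16 (0.987), Tnfrsf8 (0.985) and Ckap4 (0.984), and Slc17a8 to Apod (0.985), Hbegf (0.974) and Drd1 (0.974), the dopamine D1 receptor of medium spiny neurons. Gad1 ran closest to Xab2, Hspa9 and Rmc1 (each 0.992), and Gad2 to Utp4 (0.980), Ass1 (0.977) and Lmo7 (0.974). Slc32a1 had looser neighbours in Cntnap1 (0.942), Cntn2 (0.918) and Ggt1 (0.910), and Slc6a11 in Csf1r (0.941), Mboat7 (0.932) and Cachd1 (0.930).

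The likeness did not always hold within each fraction. For Hs3st2 and Slc17a7, r was 0.9998 over the 6 input and 0.9998 over the 6 polysome libraries. For Xab2 and Gad1 it was 0.844 and 0.989. For Csf1r, a microglial receptor, and Slc6a11 it was 0.992 in input and 0.472 in polysome RNA.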

How the data were processed

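Libraries came from a kit for stranded total RNA, per the labels' protocols. The deposited table holds 1 signal per gene and library, the authors' normalized estimated counts. The submitters' processing notes name DESeq2 1.26.0, Salmon 1.1.0, R 3.6.2 and GRCm38, and the annotation is not given in the sources used here. Of 21492 identifiers, 21465 matched GENCODE M21 symbols. Whole reads could not be recovered: of values worth 20 reads or fewer, 32.6% to 46.0% were within 0.1 of a whole read. No count test was therefore run, and a fold is on the log2(value + 1) scale.

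limma 3.58.1 in R 4.3.3 was fitted across all genes on log2(value + 1) with a variance trend, for genes with at least 3 fitted libraries at 10. Benjamini-Hochberg adjusted p-values under 0.05 were called. Genotype was fitted in 6 libraries, polysome against input and the interaction in 12. Samples of a group are not said to come from separate animals, so p-values may measure technical spread.

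Deviations from group means correlated at 0.24 to 0.55 in the 18 same-numbered pairs across groups and at -0.41 to -0.00088 in 36 others. Centring each gene on its group mean pushes the others below 0 when the same-numbered pairs lie above it, so their range is no separate evidence. The numbers were taken to pair the samples from the same-numbered correlations and from the shared numbers, and a replicate block was an alternative. Other alternatives were pseudocounts, filters, TMM and mitochondrial rescaling, no variance trend, other libraries in the fit and libraries left out. Leaving out all libraries of a number, and another gene length, were added after seeing the data.

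The members and lists were chosen with earlier results of these data known. All 7 members are named. Of the related genes, the rule names the largest called rise and fall, or the smallest p where none was called. Other related genes are named because they passed or stand for their class. In simulated data of the input comparison over 16219 genes, 30.6% of changes of 1 log2 unit and 74.7% of changes of 2 were recovered, with 9 false calls. For polysome against input in WT, over 16723 genes, 41.4% and 84.0% were recovered, with 3 false calls. The simulated libraries were drawn independently, without the differences that same-numbered libraries share, so recovery in the real data may differ.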

Additional observations from a re-analysis of the deposited data

How the results depend on the processing

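Of 560 values of the members under the alternatives in the methods, 474 kept their direction and side of the threshold, 72 changed sign, 12 no longer passed and 2 newly passed. Under the alternatives added after seeing the data these numbers were 166, 32, 8 and 4 of 210. Apart from Slc17a7, which newly passed for polysome against input, the replicate block changed no member's call.

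The number of genes called depended on the block and on the number 2. For genotype it was 0 in input and 0 in polysome RNA. Leaving out 1 library gave 0 to 1 in each (1 without TG input 2 and 1 without WT polysome 1), and the block gave 1 in polysome RNA. Without all libraries of number 2 it was 1 in input. With the block and without number 1, 2 or 3 it was 1, 6 and 2 in input, and without number 1 or 3 it was 3 and 89 in polysome RNA. For polysome against input in WT it was 2367, and 3906 with mitochondrial rescaling, 5052 with the block, 648 to 1849 with 1 library left out, and 214, 140.0 and 346 without number 1, 2 or 3. With the block it was then 375 without number 2 and 3669 without number 3. In TG it was 3062, and 5638 with the block, 1700.0 in a fit of the 6 TG libraries, 1205 to 3263 with 1 library left out, 462, 332 and 484 without number 1, 2 or 3, and 1321 with the block without number 2. For the interaction it was 0, 0 to 2 with 1 library left out, 1 without number 2, and with the block 2 without number 2 and 1 without number 3. The cause was not tested.

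Members changed sign mostly where the estimate was near 0. With mitochondrial rescaling, polysome against input was 0.016 for Slc17a6, 0.22 for Slc32a1 and 0.10 for Slc6a11 in WT, and 0.23, 0.22 and 0.031 in TG. Leaving out all libraries of a number reversed some values, which were the same with and without the block. For genotype difference in input, these were Slc17a7 0.020 without number 1, Slc32a1 -0.090 without number 3 and Slc6a11 0.067 without number 1. For genotype difference in polysome, these were Slc17a7 0.014 without number 2 and Slc32a1 -0.088 without number 3. For polysome against input in WT, these were Slc32a1 0.10 without number 3. For polysome against input in TG, these were Slc17a6 0.051 without number 3 and Slc32a1 0.10 without number 3. For interaction of genotype and fraction, these were Slc17a7 -0.032 without number 1, Slc17a6 -0.0073 without number 2, Slc17a8 -0.026 without number 2, Slc17a8 -0.0096 without number 3, Gad2 0.0027 without number 1, Slc32a1 0.015 without number 2, Slc32a1 0.0020 without number 3 and Slc6a11 0.052 without number 2. Leaving out 1 library gave ranges that crossed 0. For genotype difference in input, they were Slc17a7 from -0.53 to 0.32, Slc17a6 from -1.15 to 0.22, Slc17a8 from -0.094 to 0.41, Gad1 from -0.0078 to 0.16, Slc32a1 from -0.032 to 0.15 and Slc6a11 from -0.33 to 0.10. For genotype difference in polysome, they were Slc17a7 from -0.52 to 0.36, Slc17a6 from -0.86 to 0.27, Slc17a8 from -0.14 to 0.48, Gad1 from -0.29 to 0.33, Gad2 from -0.16 to 0.32 and Slc32a1 from -0.17 to 0.23. For polysome against input in WT, they were Slc17a6 from -0.71 to 0.24, Slc17a8 from -0.032 to 0.52, Slc32a1 from -0.24 to 0.16 and Slc6a11 from -0.34 to 0.0070. For polysome against input in TG, they were Slc17a6 from -0.84 to 0.56, Slc17a8 from -0.028 to 0.54 and Slc32a1 from -0.22 to 0.014. For interaction of genotype and fraction, they were Slc17a7 from -0.42 to 0.49, Slc17a6 from -0.58 to 0.82, Slc17a8 from -0.28 to 0.34, Gad1 from -0.36 to 0.26, Gad2 from -0.26 to 0.21, Slc32a1 from -0.23 to 0.17 and Slc6a11 from -0.27 to 0.17.

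Without the variance trend Gad1 did not pass in WT (-1.04, limma adjusted p = 0.0605). The fit of the 6 libraries of a genotype cannot be given for the interaction. Of the related genes, Slc1a6 ranged from -0.094 to 0.35 in WT and from -0.14 to 0.58 in TG with 1 library left out. Depth limits low values most, and the lowest member value was about 251 reads.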

Other observations

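Vesicular transporters of other transmitters were read beside the 7 genes. Slc18a3, which loads acetylcholine, ranged from 434 to 738 normalized counts in input and from 556 to 1209 in polysome RNA. Its log2 difference of polysome minus input was 0.60 ± 0.31 (SE) in WT and 0.47 ± 0.31 in TG by limma without a block (adjusted p = 0.209 and 0.316), and it rose in the fit with the replicate block (adjusted p = 0.0197 and 0.0432), but not in the blocked fits without number 1 or 2. Slc18a2, which loads monoamines, was low, at 17.4 to 203 normalized counts, and its number 2 lay below the others by a mean log2 difference of -1.73.

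Sv2b and Sv2c, synaptic vesicle glycoproteins, differed in opposite directions between numbers. Number 2 lay below the others by a mean log2 difference of -0.68 for Sv2b and above by 0.60 for Sv2c, beside -1.24 for Slc17a7 and 0.84 for Slc17a8.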
